A study of Mus musculus with 24 samples.

Results

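Small nucleolar RNAs (snoRNAs) and small Cajal body RNAs (scaRNAs) were followed in the gastrocnemius muscle of sham and small mouse cage (SMC) mice. The members were the genes whose symbol begins with Snora, Snord or Scarna and that had at least 10 counts in at least 6 of the 24 mice, so they were selected on measured counts. Of the 55416 genes in the count table, 113 carried such a symbol (37 Snora, 70 Snord and 6 Scarna), and 15 of these met the rule. They were 6 Snora genes (Snora73b, Snora73a, Snora31, Snora30, Snora23 and Snora78), 4 Snord genes (Snord17, Snord71, Snord104 and Snord59a) and 5 Scarna genes (Scarna2, Scarna10, Scarna6, Scarna9 and Scarna17). The other 98 fell short, and 46 of those had 0 counts in every mouse. Snord59a was just inside the rule, with at least 10 counts in 6 mice, and Snord15a was just outside it, with 5 mice and a mean of 6.0 counts.

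The mice were wild-type C57BL/6J animals of both sexes (the labels give the strain as C56BL6J), bought as young adults. SMC mice had lived for 8 weeks in a small cage that restricts movement, sham mice were ambulatory, and the labels name no transgene or drug in any group. Each combination of sex and housing held 6 mice, which gave 4 groups. Library number followed group, so any effect of processing order cannot be told apart from the group. The age at tissue collection was not in the labels.

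Box C/D snoRNAs (Snord) guide 2′-O-methylation, and box H/ACA snoRNAs (Snora) guide pseudouridylation, mostly of ribosomal RNA. The scaRNAs carry the same boxes, reside in Cajal bodies and guide the same modifications on the small nuclear RNAs of the spliceosome. Most vertebrate snoRNAs are cut from introns of host genes and protected by a core of bound proteins, so their level need not follow that of the host mRNA. Muscle fibres contain both classes, as do the other cells of a whole muscle.

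The sequences of the RNAs on which the results turn are given from GENCODE M21 transcripts, an annotation of an older build than the GRCm39 of the submitters' processing notes, and all 15 members were found there. Capitals mark the C box core TGATGA, the last D box CTGA, and the ACA that lies 3 bases from the 3′ end, each read on the RNA strand only. Scarna2 and Scarna6 are shown because they were called in the comparison over both sexes, Scarna9 because its female groups separated, and the Snora73 pair because its copies are nearly identical.
Scarna2, bases 115 to 414: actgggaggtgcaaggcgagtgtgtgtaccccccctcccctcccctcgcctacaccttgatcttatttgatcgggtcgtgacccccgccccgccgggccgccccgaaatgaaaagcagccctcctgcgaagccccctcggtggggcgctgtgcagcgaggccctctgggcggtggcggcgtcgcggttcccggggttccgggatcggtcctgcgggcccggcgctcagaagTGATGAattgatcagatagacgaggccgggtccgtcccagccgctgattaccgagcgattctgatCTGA
Scarna6: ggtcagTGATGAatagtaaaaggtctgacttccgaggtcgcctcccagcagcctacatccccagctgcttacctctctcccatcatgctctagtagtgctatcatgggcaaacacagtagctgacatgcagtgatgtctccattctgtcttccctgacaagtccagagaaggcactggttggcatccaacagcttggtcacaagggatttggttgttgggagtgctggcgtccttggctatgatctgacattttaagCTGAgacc
Scarna9: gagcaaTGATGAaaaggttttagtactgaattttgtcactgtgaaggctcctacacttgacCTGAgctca
Snora73b: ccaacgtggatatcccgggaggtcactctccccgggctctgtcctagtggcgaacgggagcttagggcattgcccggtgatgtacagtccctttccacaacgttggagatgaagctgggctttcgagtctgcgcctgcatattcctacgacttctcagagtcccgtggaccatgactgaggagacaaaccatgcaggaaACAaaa
Snora73a: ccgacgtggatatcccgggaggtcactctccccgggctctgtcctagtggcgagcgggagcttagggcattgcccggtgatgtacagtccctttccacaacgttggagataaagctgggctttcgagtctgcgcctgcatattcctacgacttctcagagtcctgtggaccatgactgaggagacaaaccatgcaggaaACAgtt
Scarna2 was the longest member, at 414 bases, and its only exact TGATGA began at base 346, near its 3′ end. That of Scarna6 and Scarna9 began at base 7. Boxes that depart from these exact strings were not sought. The ACA was in this position in the 6 Snora members and in none of the other 9, and TGATGA was in 8 members, none of them Snora. Among 1099 annotated mouse snoRNA and scaRNA transcripts, TGATGA was in 15.7%, a CTGA within the last 15 bases in 20.9%, and the ACA at this position in 20.9%. Snora73a and Snora73b were identical at 198 of 205 bases (96.6%), and only 11 of the 156 windows of 50 bases in Snora73b also occurred in Snora73a. Reads could still have been split between the pair by the counting, so their separate values are uncertain.

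Total counts per library lay between 23026627 and 36880413, and the members took between 0.00413% and 0.0159% of them. The common biological coefficient of variation was 0.206 over the 16408 genes tested. Defining skeletal muscle markers were high in every library. Their summed level (8 of 8 genes, Acta1, Ckm and others) ranged from 149765 to 294920 CPM (counts scaled to library size) in male sham and from 148023 to 378689 in female sham. It ranged from 270366 to 342944 in male SMC and from 272944 to 341949 in female SMC. The lowest values were those of male sham mouse 1 and female sham mouse 8, whose TMM scaling factors of 1.21 and 1.32 were also the highest. A further pair of sham libraries stood apart for slow fibre genes (9 of 9 tested), at 81.7 CPM in male sham mouse 4 and 68.7 CPM in female sham mouse 7, against 684 CPM in the lowest male SMC mouse. Leaving out each pair is reported beside the calls.

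Long Cajal body RNAs made up most of the signal. Scarna2 took 63.4% of all member counts and Scarna10 took 16.3%. Compared per length, as mean CPM per kilobase over the 24 mice, Scarna2 stood at 102.6, Scarna10 at 33.7, Snora73b at 17.5, Snora73a at 11.5 and Scarna9 at 8.38. The other 10 members lay between 2.30 (Snora23) and 7.40 (Snord17) CPM per kilobase. The members thus spanned more than an order of magnitude in level. The lowest were the H/ACA members Snora78 (3.11) and Snora23 (2.30), and Snord17 ranked 6 of 15.

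By class, the summed Cajal body RNAs lay lower with SMC than with sham housing. Their level was 72.7 ± 10.9 CPM in male sham and 48.9 ± 4.56 CPM in male SMC (mean ± SD, n = 6). In females it was 65.01 ± 20.6 CPM in sham and 37.8 ± 3.43 CPM in SMC, with medians of 57.6 and 36.6. Female sham mouse 8 stood at 106.8 CPM and the other female sham mice at 53.6 to 59.0. The 6 male SMC values (43.9 to 56.7 CPM) lay below the 6 male sham values (60.0 to 92.3 CPM), and the female SMC values (34.1 to 42.3 CPM) lay below the female sham values (53.6 to 106.8 CPM). Most of this sum is Scarna2. As a mean of log2 CPM, which weights the members equally, the Scarna class differed by -0.41 in males and -0.71 in females, the Snora class by -0.16 and -0.06, and the Snord class by 0.03 and -0.21. No test was made of these class levels. In whole muscle, fewer cells of a type and less RNA per cell cannot be told apart.

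Of the 15 members, 14 passed the filter on low counts and were tested, and Snord59a did not. In males, none of the 14 passed a false discovery rate (FDR) of 0.05 in edgeR's quasi-likelihood fit, adjusted by Benjamini-Hochberg over all genes, where 0.0% of all genes were called lower. In that comparison 4 members were lower at an unadjusted p under 0.05 (Scarna2, Scarna10, Scarna6 and Snora73b), against 5.59% of all genes. In females, 1 member, Scarna2, was called lower, against 0.219% of all genes, and 6 were lower at an unadjusted p under 0.05, against 7.47%. With both sexes averaged, 2 of 14 were called lower (Scarna2 and Scarna6), against 1.33% of all genes, and 7 were lower at an unadjusted p under 0.05, against 9.65%. The 7 were the 5 Scarna members, Snord17 and Snora73b. No member was called higher with SMC, where 0.0% of all genes were called higher in males, 0.122% in females and 1.03% over both sexes. Because an RNA that is high in 1 group meets the count rule more easily, these counts describe the members and do not test them as a list.

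The direction was lower for 11 of 14 tested members in males, where 50.9% of all genes were lower, and for 11 of 14 in females, where 52.4% were. The median log2 fold change of the tested members was -0.27 in males, -0.39 in females and -0.34 over both sexes. For all genes tested it was -0.01 in females and over both sexes and about 0 in males. All 5 Scarna members were lower in each sex, with a median of -0.35 in males and -0.79 in females. The Snora median (6 members) was -0.20 in males and -0.13 in females, and the Snord median (3 members) was -0.11 and -0.67.

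**Figure D1:**
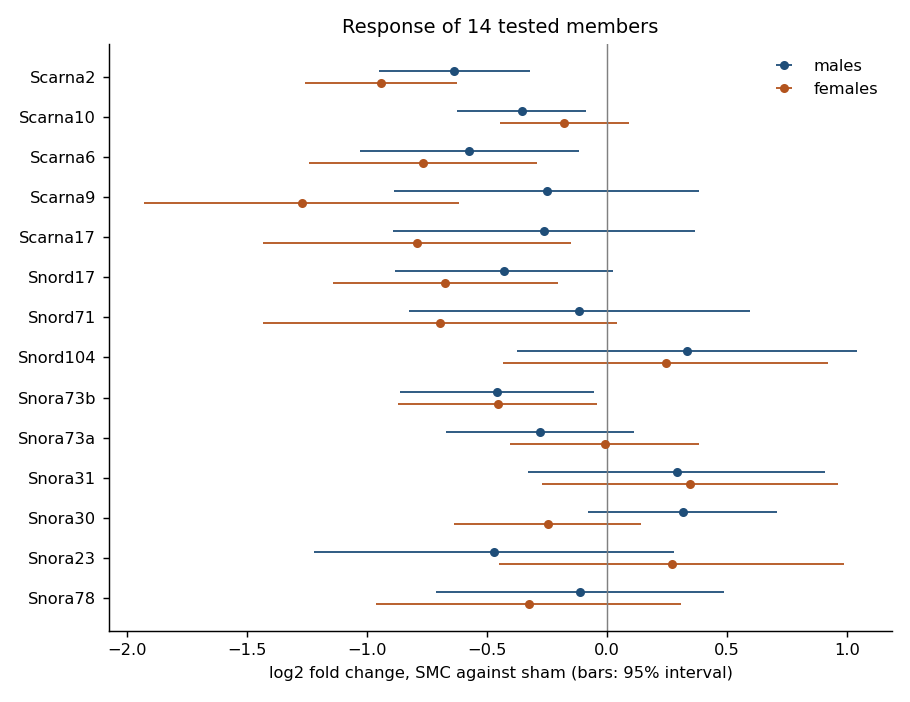
Log2 fold change of SMC against sham (x axis) for each of the 14 tested members (y axis, ordered by class), in males (blue) and females (orange), with 95% intervals as bars. All 5 Scarna members lie left of 0 in both sexes, from -0.25 to -0.64 in males and from -0.18 to -1.27 in females, and Snora31 and Snord104 lie right of 0 in both.

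Scarna2 guides methylation of the U2 small nuclear RNA and was the most abundant member. In male sham mice it ranged from 44.7 to 69.4 CPM with a median of 54.6, and in male SMC mice from 30.5 to 42.7 CPM with a median of 35.8. In female sham mice it ranged from 39.5 to 88.9 CPM with a median of 44.5, and in female SMC mice from 24.1 to 30.1 CPM with a median of 26.2. In each sex all 6 SMC mice lay below all 6 sham mice, which was so for 0.311% of all genes in males and 0.634% in females. The counts behind these levels were 514 to 2772 reads per mouse, so counting error was small beside the spread between mice. The male difference of -0.64 (SE 0.15) had an FDR of 0.112 and the female difference of -0.94 (SE 0.15) an FDR of 0.0228 (edgeR, Benjamini-Hochberg). The male difference was called by DESeq2 (FDR 0.0128), by limma voom (FDR 0.0231), and by edgeR without male sham mouse 5 (FDR 0.0420) or without female sham mouse 8 (FDR 0.0130). The female call was lost with the 12 female samples alone (edgeR FDR 0.0762). Averaged over the sexes, Scarna2 fell by 42.1% (log2 fold change -0.79, SE 0.11, 95% interval -1.01 to -0.57, edgeR FDR 0.000981).

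The averaged difference of Scarna2 was called with each of the 24 mice left out in turn, at log2 fold changes between -0.82 and -0.67. Without male sham mouse 1 and female sham mouse 8 together it was -0.64 (SE 0.07, edgeR FDR 3.94e-05), and the female difference was -0.71 (edgeR FDR 0.00266). In that female comparison 1 gene of 16431 was called at all, and it was Scarna2, where 56 were called with every mouse. The female call was lost without female SMC mouse 22 or without female SMC mouse 23 (log2 fold changes -0.91 and -0.91, highest edgeR FDR 0.0590). Without male sham mouse 4 and female sham mouse 7 together, the averaged differences were -0.80 for Scarna2 (edgeR FDR 0.00189) and -0.68 for Scarna6 (edgeR FDR 0.0331).

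**Figure D2:**
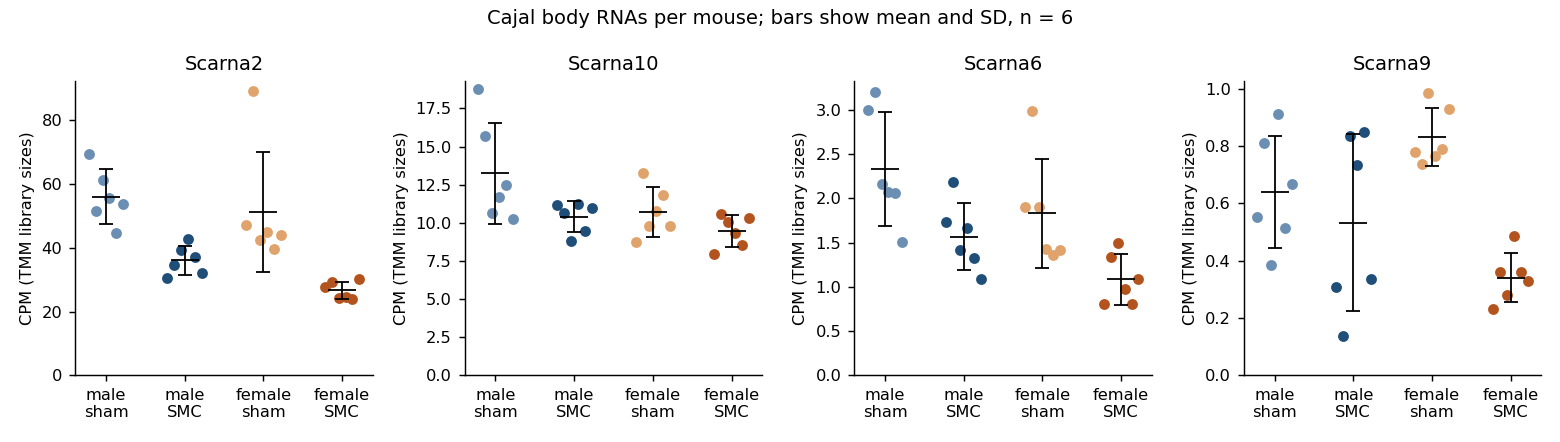
CPM per mouse (y axis, from 0, TMM library sizes) of Scarna2, Scarna10, Scarna6 and Scarna9 in the 4 groups (x axis), with 1 point per mouse and bars for the mean and SD of 6 mice. Scarna2 separates sham from SMC in both sexes, and the single high female sham point, mouse 8 at 88.9 CPM, lies far above the other 5 at 39.5 to 47.0.

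Scarna6 was the other member called over both sexes. It ranged from 1.5005 to 3.20 CPM (median 2.12) in male sham and from 1.09 to 2.18 (median 1.54) in male SMC. In females it ranged from 1.36 to 2.98 CPM (median 1.66) in sham and from 0.805 to 1.4997 (median 1.03) in SMC. The groups overlapped in both sexes, although all 6 female SMC mice lay below the female sham median and 5 of 6 male SMC mice below the male one. Its averaged log2 fold change was -0.67 (SE 0.16, edgeR FDR 0.0263), with -0.57 in males (edgeR FDR 0.327) and -0.77 in females (edgeR FDR 0.128). The averaged call was lost without male sham mouse 1, without male sham mouse 2 (highest edgeR FDR 0.0523), and without male sham mouse 1 and female sham mouse 8 together (log2 fold change -0.53, edgeR FDR 0.0840).

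Scarna9, which belongs to a family that guides U2 modification, was annotated at 70 bases only and had 4 to 30 reads per mouse. In females it was 0.738 to 0.984 CPM in sham (median 0.785) and 0.230 to 0.486 CPM in SMC (median 0.345). The 6 female SMC values lay below the 6 sham values, and the log2 fold change was -1.27 (SE 0.32, edgeR FDR 0.0689). In males it was 0.384 to 0.911 CPM in sham (median 0.609) and 0.138 to 0.848 in SMC (median 0.534). The male groups overlapped widely, and the log2 fold change was -0.25 (SE 0.31, edgeR FDR 0.828). The test of the difference between the sexes gave 1.02 (male minus female, SE 0.44, 95% interval 0.11 to 1.93, unadjusted p = 0.0300, edgeR FDR 0.946), which did not pass.

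Scarna10 is a composite RNA that carries both kinds of box. It ranged from 10.2 to 18.8 CPM (median 12.1) in male sham and from 8.81 to 11.2 (median 10.8) in male SMC. In females it was 8.72 to 13.3 CPM (median 10.3) in sham and 7.94 to 10.6 (median 9.69) in SMC. All 6 male SMC mice lay below the male sham median, although the groups overlapped. The log2 fold changes were -0.35 in males (SE 0.13, edgeR FDR 0.297) and -0.18 in females (SE 0.13, edgeR FDR 0.628). Scarna17 differed by -0.26 in males and -0.79 in females (edgeR FDR 0.815 and 0.268), at 3 to 27 reads per mouse.

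Among the box H/ACA snoRNAs, the Snora73 pair (the U17 RNA, which takes part in processing of the small ribosomal subunit RNA) was the most abundant. Snora73b was 3.93 to 5.62 CPM (median 4.56) in male sham and 1.92 to 4.68 (median 3.60) in male SMC. In females it was 2.19 to 4.94 CPM (median 3.54) in sham and 1.78 to 3.48 (median 2.43) in SMC. Its averaged log2 fold change was -0.46 (SE 0.14, edgeR FDR 0.0782), with nearly the same value in males (-0.46) and females (-0.46), and the groups overlapped. Snora73a was 1.40 to 3.13 CPM (median 2.97) in male sham, 1.51 to 2.88 (median 2.21) in male SMC, 1.90 to 2.89 (median 2.17) in female sham and 1.54 to 3.005 (median 2.07) in female SMC. It differed by -0.28 in males and -0.01 in females (edgeR FDR 0.640 and 0.992), and the female direction turned when single mice were left out. The copies share their host genes, so a difference between them and the assignment of reads cannot be told apart.

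The remaining H/ACA members were lower in count, and none of their differences passed the test. Snora31 was at 0.447 to 1.03 CPM (median 0.683) in male sham and 0.293 to 1.14 (median 0.889) in male SMC. In females it was at 0.395 to 1.35 CPM (median 0.628) in sham and 0.688 to 1.05 (median 0.905) in SMC, where all 6 SMC mice lay above the sham median. Its log2 fold change was 0.29 in males and 0.34 in females. Snora30 was 0.499 to 0.952 CPM (median 0.587) in male sham, 0.628 to 0.934 (median 0.833) in male SMC, 0.788 to 0.984 (median 0.848) in female sham and 0.516 to 1.05 (median 0.695) in female SMC. Its log2 fold change was 0.32 in males and -0.25 in females (SE 0.19 for both). The edgeR test of that difference gave 0.56 (SE 0.27, unadjusted p = 0.0469, FDR 0.955). Snora30 and Scarna9 were the 2 members with an unadjusted p under 0.05 for a less negative or higher response in males, against 3.0% of all genes. Snora23 and Snora78 had median counts of 11.5 and 12 reads, and their log2 fold changes lay between -0.47 and 0.27.

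**Figure D3:**
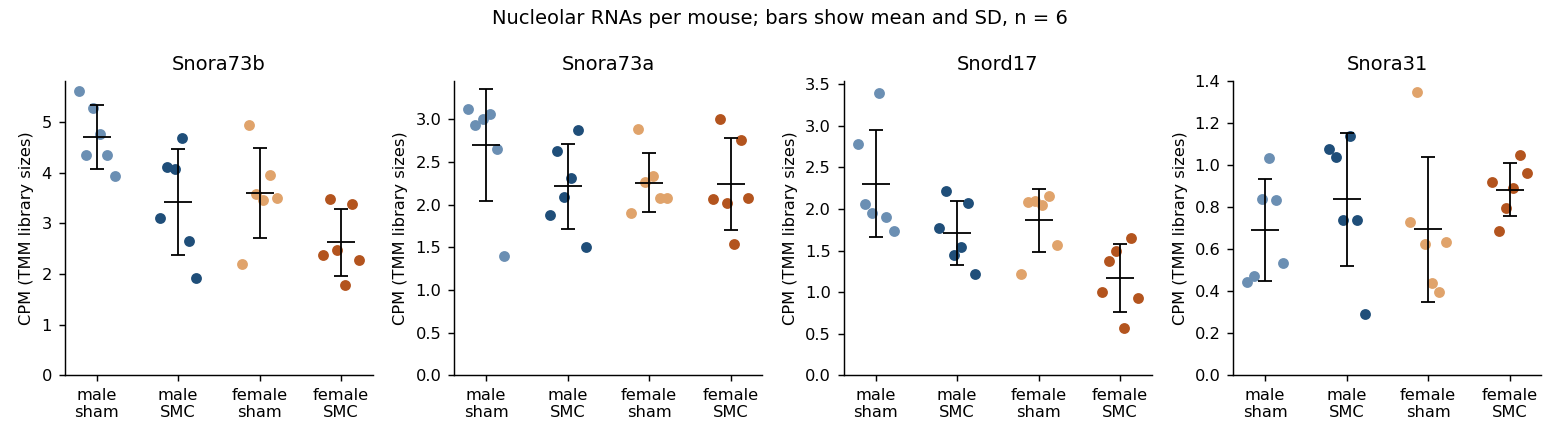
CPM per mouse (y axis, from 0, TMM library sizes) of Snora73b, Snora73a, Snord17 and Snora31 in the 4 groups (x axis), with 1 point per mouse and bars for the mean and SD of 6 mice. The SMC and sham points overlap in all 4 RNAs, with Snord17 at 0.567 to 1.65 CPM in female SMC against 1.22 to 2.15 in female sham.

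Among the box C/D snoRNAs, Snord17 was the only member with at least 10 counts in every mouse. It was 1.73 to 3.39 CPM (median 2.01) in male sham and 1.21 to 2.21 (median 1.66) in male SMC. In females it was 1.22 to 2.15 CPM (median 2.06) in sham and 0.567 to 1.65 (median 1.19) in SMC. All 6 female SMC mice lay below the sham median, and the groups overlapped. The log2 fold changes were -0.43 in males (SE 0.22, edgeR FDR 0.487) and -0.67 in females (SE 0.23, edgeR FDR 0.182). Over both sexes it was -0.55 (SE 0.16, edgeR FDR 0.0614). That averaged difference was called by DESeq2 (FDR 0.0200) and limma voom (FDR 0.0196). In edgeR it was called with library totals without TMM (FDR 0.0150) and with only genes of at least 10 counts in every mouse (FDR 0.0480). It was called in 2 of 24 fits that left out 1 mouse (edgeR FDR 0.0381 to 0.104 over the 24).

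Snord71, Snord104 and Snord59a had medians of 6.0 to 8.0 reads per mouse. Snord71 was 0.248 to 0.489 CPM in male sham, 0.167 to 0.773 in male SMC, 0.255 to 0.624 in female sham and 0.121 to 0.434 in female SMC, with log2 fold changes of -0.11 and -0.69 (edgeR FDR 0.943 and 0.435). Snord104 was 0.133 to 0.341 CPM in male sham, 0.148 to 0.384 in male SMC, 0.112 to 0.513 in female sham and 0.271 to 0.575 in female SMC, with log2 fold changes of 0.33 and 0.24 (edgeR FDR 0.787 and 0.824). Snord59a was 0.0674 to 0.397 CPM in male sham, 0.138 to 0.461 in male SMC, 0.160 to 0.328 in female sham and 0.192 to 0.328 in female SMC, and without the filter its log2 fold changes were 0.50 and 0.21 (edgeR FDR 0.712 and 0.911). The groups of each overlapped. In males the 95% intervals ran from -0.82 to 0.60 for Snord71 and from -0.38 to 1.04 for Snord104.

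Sham males and sham females did not differ in any of the 14 members at the FDR threshold, where 1.14% of all genes were called lower and 0.835% higher in males. Scarna10 was the only member at an unadjusted p under 0.05 (6.23% of all genes were higher in males at that p), at 13.3 ± 3.32 CPM in males and 10.7 ± 1.63 CPM in females (log2 fold change 0.31, male minus female, SE 0.13, edgeR FDR 0.237). The difference between the sexes in the response to SMC was likewise called for no member, where 0.0% of all genes were called in either direction. For Scarna2 that difference was 0.30 (male minus female, SE 0.22, 95% interval -0.14 to 0.75, edgeR FDR 0.974).

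Members differed in annotated length, and low values were found at both ends of its range. The 6 tested members longer than 200 bases (Scarna2, Scarna10, Scarna6, Snord17, Snora73a and Snora73b) were lower over both sexes, with an averaged median of -0.50, but Scarna10 at 325 bases stood at -0.27 and Snora73a at 205 bases at -0.14. Of the 8 shorter tested members, 5 were lower over both sexes, with a median of -0.16, and Scarna9 at 70 bases stood at -0.76 and Scarna17 at 79 bases at -0.53. A further 31 tested genes are annotated as snoRNA or scaRNA under names beginning with Gm. Of these, 23 were lower in males, 24 in females and 23 over both sexes, with an averaged median of -0.23. The shares of all genes that were lower were 50.9%, 52.4% and 52.4%. The 5 Gm genes longer than 200 bases were lower in each sex, with an averaged median of -0.44. Of the 26 shorter ones, 18 were lower over both sexes, with a median of -0.20. The lowest were both short, namely Gm22362 (134 bases, log2 fold change -0.86, SE 0.28, edgeR FDR 0.0961) and Gm25967 (147 bases, -0.85, SE 0.29, edgeR FDR 0.110). Their mean counts were 69.7 and 7.83 reads per mouse, so the value of Gm25967 rests on few reads. The only one called over both sexes, where 1.33% of all genes were called lower, was Gm25395 (a scaRNA of 272 bases, log2 fold change -0.69, SE 0.13, edgeR FDR 0.00999). These genes were chosen after their values were seen. The limit of 200 bases was chosen after these values were seen, and long RNAs also had more counts, so length and count cannot be told apart here and no test was made.

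**Figure D4:**
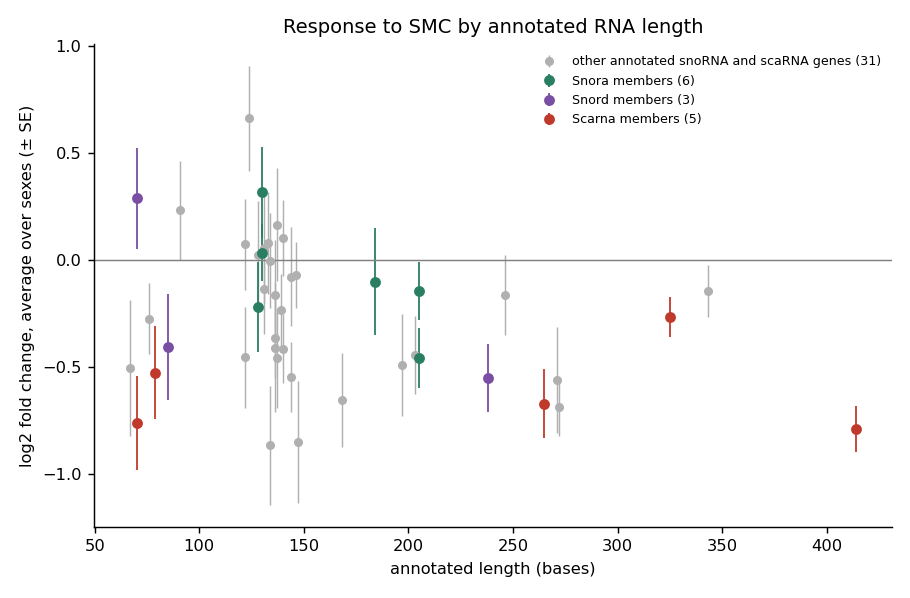
Log2 fold change of SMC against sham averaged over the sexes (y axis, with SE) against annotated length in bases (x axis), for the 14 tested members by class (colours) and for 31 other annotated snoRNA and scaRNA genes (grey). Every plotted gene longer than 200 bases lies below 0, with Scarna2 at 414 bases and -0.79, while shorter genes lie on both sides and reach as low as -0.86.

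Rpph1, the RNA of the enzyme RNase P, is a structured noncoding RNA outside both classes and gave a high signal in these libraries. Rpph1 was at 491 to 739 CPM in male sham, 303 to 548 in male SMC, 435 to 832 in female sham and 339 to 543 in female SMC. Its log2 fold change was -0.44 in males (edgeR FDR 0.294), -0.20 in females (edgeR FDR 0.649) and -0.32 over both sexes (SE 0.11, unadjusted p = 0.00831, edgeR FDR 0.123). Rpph1 was highest in female sham mouse 8 and male sham mouse 1, as several long members were. With log2 CPM of Rpph1 as a covariate, the averaged difference of Scarna2 was -0.61 (edgeR FDR 0.0469), that of Scarna6 was -0.44 (edgeR FDR 0.294), and the female Scarna2 difference was -0.82 (edgeR FDR 0.0509). In that fit 27 genes were called over both sexes, against 388 without the covariate. Rmrp, the related RNA of RNase MRP, differed by 0.29 in males and -0.93 in females (edgeR FDR 0.804 and 0.200) and was at 0.243 to 1.12 CPM.

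The mice that were high for 1 long member tended to be high for others. Among female sham mice, mouse 8 was highest for 5 of the 6 members longer than 200 bases, and among male sham mice, mouse 1 was highest for 4 of 6 and mouse 6 lowest for 5 of 6. Mouse 8 was also highest among female sham mice for the summed red blood cell (1844 CPM), fibroblast (1294 CPM), macrophage (74.3 CPM), Schwann cell (158.1 CPM) and adipocyte (87.0 CPM) markers. Mouse 1 was highest among male sham mice for the red blood cell (1569 CPM), macrophage (60.4 CPM) and Schwann cell (83.9 CPM) markers. The part of these markers, of the low summed muscle markers and of Rpph1 in the member results was not tested beyond the fits with Rpph1 as covariate and without both mice.

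No host gene was called. Annotation placed 12 members inside a gene on the same strand, with 13 hosts in all, and none was found for Scarna2, Scarna17 and Snord104. Of 12 tested hosts, none passed the FDR threshold in edgeR's fit, and 1 in males, 1 in females and 2 over both sexes had an unadjusted p under 0.05, against 11% (1805 of 16408), 12.5% and 17.5% of all genes. The median host log2 fold change was -0.06 in males, 0.02 in females and -0.05 over both sexes, and hosts lay between -0.24 and 0.28 in either sex. A member lay below its host in 10 of 13 pairs in males, 11 in females and 10 over both sexes. These pairs are not independent, and with hosts near 0 the counts largely restate that most members were lower. Snora73a, Snora73b and Snora30 each enter with 2 hosts, and Rcc1 and Snhg3 each with 2 members. Atg16l1, an autophagy gene that hosts Scarna6, differed by -0.11 (SE 0.04, edgeR FDR 0.163) over both sexes, against -0.67 for Scarna6. Cep295, a centrosome gene that hosts Scarna9, differed by 0.04 in females (SE 0.09, edgeR FDR 0.897), against -1.27. For Snora73b the hosts Rcc1 and Snhg3 stood at -0.07 and -0.07 over both sexes, against -0.46. Ncapd2, a condensin subunit gene, stood at 0.17 against -0.27 for Scarna10, which overlaps one of its exons. Snora73a likewise overlaps an exon of Snhg3. Both overlaps are on the same strand, so the values of Scarna10 and Snora73a are uncertain even where counting used the strand. Snora78 lies opposite Rps2, Snora73a and Snora73b opposite Gm17300, and Snora23 opposite 1600010M07Rik. Those values are uncertain where counting did not use the strand.

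**Figure D5:**
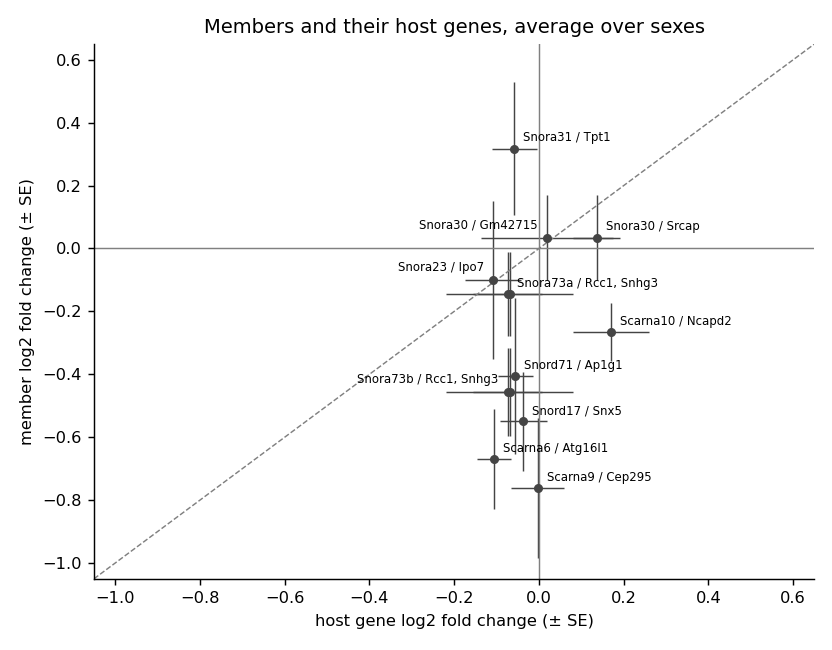
Averaged log2 fold change of each member (y axis, with SE) against that of its host gene (x axis, with SE), for the pairs in which both were tested, with the dashed line marking equal change. Hosts lie between -0.11 and 0.17, while members range from -0.76 (Scarna9) to 0.32 (Snora31), and 10 of 13 pairs lie below the line. Snora73a, Snora73b and Snora30 are each plotted against both of their hosts.

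The genes of the proteins that bind and build these RNAs showed few differences. None of the 4 box C/D core proteins (Fbl, the methyltransferase, Nop56, Nop58 and Snu13) or of the 4 box H/ACA core proteins (Dkc1, the pseudouridine synthase, Gar1, Nhp2 and Nop10) was called in any comparison, and the averaged medians were 0.02 and -0.04. Fbl was 7.93 ± 0.853 CPM in male sham and 7.91 ± 0.866 in male SMC, and Dkc1 was 14.3 ± 0.739 and 15.7 ± 0.958. None of 9 assembly factors and none of 9 Cajal body, cap and transport genes was called either. Over both sexes 1.33% of all genes were called lower and 1.03% higher. In that comparison 1 assembly factor and 0 genes of the other 3 lists had an unadjusted edgeR p under 0.05, against 17.5% of all genes. Coil, which encodes the Cajal body scaffold coilin, differed by -0.19 over both sexes (SE 0.09, edgeR FDR 0.300).

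Among genes of debranching, trimming and decay, 14 of 15 were tested. Of these, 14 of 14 were lower in males (median -0.14, none called) and 9 of 14 in females (median -0.07, none called). Over both sexes 12 of 14 were lower (median -0.10). Of all genes, 50.9% were lower in males and 52.4% in females and over both sexes. At an unadjusted edgeR p under 0.05, 3 of the 14 were lower in males, 3 in females and 4 over both sexes. The shares of all genes lower at that p were 5.59%, 7.47% and 9.65%. Mtrex, the helicase that feeds RNA to the nuclear exosome, was called lower over both sexes (log2 fold change -0.22, SE 0.04, edgeR FDR 0.00599), with -0.26 in males (edgeR FDR 0.0929) and -0.19 in females (edgeR FDR 0.130). Of 16 RNA polymerase I and nucleolar genes, 11 were lower in males, 10 in females and 14 over both sexes (median -0.06), and none was called. At an unadjusted edgeR p under 0.05, 3 of these were lower in males, 0 in females and 3 over both sexes. Over the 6 lists of protein genes the lowest log2 fold change averaged over the sexes was that of Mtrex.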

How the data were processed

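Gastrocnemius RNA of 24 mice (6 male sham, 6 male SMC, 6 female sham, 6 female SMC) was analysed. Per the labels, total RNA was depleted of ribosomal RNA and made into directional libraries, and the deposited values are the authors' raw counts of reads per Ensembl gene. The submitters' processing notes name GRCm39, cutadapt 1.16, STAR 2.7.9a, featureCounts 1.6 and DESeq2 1.34.0, with no role or order. The annotation release and the strand setting are not given in the sources used here. Small RNAs shorter than a library fragment can be recovered poorly by such libraries, so CPM values do not give cellular abundance.

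Symbols, lengths, hosts (a gene that contains the member on the same strand) and sequences came from GENCODE M21 by gene identifier, and no coordinates are given because its build differs. Symbols were found for 52083 of 55416 genes, and 0.361% of counts were on the rest. Genes were filtered by filterByExpr, which kept 16408, normalized by TMM and fitted with 1 mean per group by edgeR 4.0.16 (quasi-likelihood, R 4.3.3). Tests were two-sided, with Benjamini-Hochberg adjustment over all genes tested and an FDR under 0.05. SMC was set against sham in each sex and on average, with a test of the difference between the sexes, and sham males were set against sham females. CPM used TMM library sizes, and log2 CPM a prior count of 2. Confidence intervals are at 95%. Each mouse was treated as a replicate, since each label gives 1 number and 1 group, and no 2 libraries of a group agreed within sampling noise (60 pairs, smallest chi-square per degree of freedom 9.77). The pipeline was tested on simulated data. Alternatives were DESeq2 1.42.0, limma 3.58.1 voomWithQualityWeights, other filters, library totals without TMM, 12 samples only, the summed other small noncoding RNAs as a covariate, leaving out each mouse, and, chosen after the data were seen, Rpph1 as a covariate and leaving out pairs of sham mice that stood apart. The members and lists were chosen with earlier results of these data known. Named members are, in each class, the 4 with the highest mean CPM, those past the FDR threshold, and, in each sex, those whose groups did not overlap. The other members, and hosts, list genes and Gm25395, are named beside them.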

Additional observations from a re-analysis of the deposited data

Results flagged for a closer look

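In 6 of 76 groups of 6 mice (the 15 members, the 3 class levels and Rpph1) 1 mouse stood apart from the other 5 by Dixon's ratio, where chance gives about 1 in 20 groups, or 3.8. Female sham mouse 8 was the one in 4 of them. It had 88.9 CPM of Scarna2 (the others 39.5 to 47.0), 2.98 CPM of Scarna6 (1.36 to 1.90), 1.35 CPM of Snora31 (0.395 to 0.731) and 831.6 CPM of Rpph1 (435 to 557). No class level, taken as mean log2 CPM, was among the 6. For the Scarna class this was 2.29 in female sham mouse 8 and 1.44 to 1.80 in the other female sham mice. Summed class levels were not part of this check, and the summed Scarna level of that mouse, 106.8 CPM, lay far above the other female sham mice (53.6 to 59.0). Male sham mouse 6 had 1.40 CPM of Snora73a (2.66 to 3.13), and male SMC mouse 16 had 0.773 CPM of Snord71 (0.167 to 0.369). Without female sham mouse 8 the female log2 fold change of Scarna2 was -0.71, against -0.94, and that of Snora31 was 0.66, against 0.34. No difference between the sexes in the response of a member passed the FDR threshold.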

How the results depend on the processing

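Scarna2 over both sexes kept its direction and its call in every setting tried. The number of members past the threshold changed with the tool and scaling. In males it was 1 with DESeq2 and 1 with voom (Scarna2 in both; DESeq2 gave no adjusted p for 8 members in males), in females 2 with DESeq2 and 2 with library totals without TMM, and over both sexes 5, 4 and 6 with DESeq2, voom and library totals. Called over both sexes beside Scarna2 and Scarna6 were Snord17 and Scarna9 with each, Snora73b with DESeq2 and library totals, and Scarna10 with library totals. Rpph1 was 99.6% to 99.9% of the summed other small noncoding RNAs in each library, so these covariates are in effect 1 alternative. With either covariate the number called was 0 in females and 1 over both sexes. Without male sham mouse 1 and female sham mouse 8 together it was 1 over both sexes. Leaving out each mouse gave 0 to 1 in males, 0 to 2 in females and 1 to 4 over both sexes. With the 12 female samples alone, 1 member was called, Scarna9 in place of Scarna2 (edgeR FDR 0.0364 and 0.0762). The Snord class level moved to -0.40 in males and -0.69 in females with members of at least 10 counts in every mouse, which leaves Snord17 alone.

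In the comparisons of SMC with sham, in each sex and averaged, the sign turned only for members with small differences. Snord71 in males was 0.085 and 0.084 with the covariates, Snora73a in females 0.0024 without a filter, 0.088 and 0.088 with the covariates and 0.077 without male sham mouse 1 and female sham mouse 8, and Snora73a over both sexes 0.037 and 0.037 with the covariates. Snora30 over both sexes was -0.097 with library totals, and Snora23 was 0.060 and 0.059 with the covariates. Leaving out single mice gave -0.25 to 0.055 for Snora78 and -0.51 to 0.0095 for Snord71 in males, -0.11 to 0.083 for Snora73a in females, and -0.036 to 0.096 for Snora30 and -0.24 to 0.0090 for Snora23 over both sexes. In the tests between the sexes, leaving out 1 mouse also turned signs. For the difference in response this was so for Snora73b (9 of 24 fits), Snora31 (5), Snord104 (4) and Scarna6 (1). Between sham males and sham females it was so for Scarna17, Snora23, Snora31 and Snord71. The cause of these changes was not tested.

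Library totals moved the median of all genes to -0.13 in males, -0.15 in females and -0.14 over both sexes, and 1861 genes were then called over both sexes, 68 of them higher, against 388 and 169. DESeq2 called 133 genes in males, 268 in females and 778 over both sexes, and voom called 93, 16 and 541. Without a filter 39 and 189 were called in females and over both sexes, with the 12 samples alone 14 in females and 58 between the sham sexes, and with either covariate 0 and 27. Without male sham mouse 1 and female sham mouse 8, 1 gene was called in females and 148 over both sexes. Without male sham mouse 4 and female sham mouse 7, 155 were called in females. No paired analysis was possible because each mouse has a number of its own. The 7 members of lowest count had counting errors of 24.7% to 38.9% per mouse, which limits what could be detected in them.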

Other observations

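Marker lists of the other cells of muscle were read beside the members, and no gene of any of these lists was called by edgeR's quasi-likelihood test in the averaged comparison. At an unadjusted p under 0.05 there, 1 skeletal muscle, 1 endothelial and 1 Schwann cell marker were higher and none of any list was lower. Counts in males were the same. In females none was higher, but 3 of 4 tendon markers (median -0.87) and 2 of 4 fibroblast markers (median -0.42) were lower. Of all genes, 7.47% were lower at that p in females. No marker was called in either sex. The adipocyte median was -0.46 in males and 0.79 in females, with no marker at that p. The averaged medians were 0.10 for skeletal muscle (8 of 8 genes tested), 0.59 for slow fibre (9 of 9), 0.23 for adipocyte (5 of 5), -0.19 for red blood cell (5 of 5), 0.10 for endothelial (4 of 4), -0.24 for fibroblast (4 of 4), -0.06 for macrophage (4 of 4), 0.24 for Schwann cell (4 of 4) and -0.44 for tendon (4 of 4). Of the 25 other small noncoding RNAs listed, 9 were in the count table and 2, Rpph1 and Rmrp, were tested. Of the fixed symbols named for their known roles, only Scarna2, Snora73a and Snora73b met the count rule.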
